A study of Mus musculus with 6 samples.

Results

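The 10 genes described here, Srebf1, Mlxipl, Fasn, Acaca, Acly, Scd1, Elovl6, Gpam, Dgat2 and Lpin1, encode the regulators and enzymes with which the liver makes fatty acids and triglycerides. A peak of the farnesoid X receptor (FXR) belonged to a gene when the authors had assigned it to that gene, which they did by the nearest transcription start site. By this rule the genes held 43 of 20040 peaks in the WT list and 26 of 12495 peaks in the LKO list, or 69 of 32535 peaks in all. FXR is a nuclear receptor that is activated by bile acids. Chromatin immunoprecipitation and sequencing (ChIP-seq) of FXR was done in the livers of male C57BL/6 mice. The control mice, WT, had the genotype Bcl6 fl/fl, with both Bcl6 alleles flanked by loxP sites. The liver knockouts, LKO, had the genotype Alb-cre, Bcl6 fl/fl, so both groups carried the floxed alleles and only the LKO mice carried Cre. Cre was driven by the albumin promoter, which is active in hepatocytes, so other liver cells were expected to keep Bcl6. BCL6 is a transcriptional repressor. Peaks of FXR do not measure the deletion, and it was not checked here. The ages of the mice were not in the labels, which also did not say whether the libraries of a genotype came from separate mice.

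Per genotype there were 2 libraries of FXR ChIP and 1 of input, chromatin that was not immunoprecipitated. The ChIP libraries held between 2883717 and 22637613 tags, and the inputs held 6964271 (WT) and 6935001 (LKO). WT replicate 2 was the shallowest, and the median peak of the 10 genes held an estimated 11.8 tags there, against 50.5 for WT replicate 1 and 37.4 and 38.4 for the LKO libraries, as estimated from the log2 values and the library totals. Values of WT replicate 2 therefore carried the most counting error. All 8 genes chosen to mark liver (Alb, Ttr, Apoa1, Apob, Serpina1a, Fgb, Tat and Hnf4a) had a peak in both lists, although a binding peak is not a measure of expression. Peaks were called once per genotype on pooled libraries and each table was normalized on its own, so every comparison between genotypes below is a description with no test.

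In the fed liver, insulin activates SREBP-1c, a product of Srebf1, and carbohydrate activates ChREBP, the product of Mlxipl, and together they switch on the genes of fatty acid synthesis. ATP-citrate lyase makes cytosolic acetyl-CoA, acetyl-CoA carboxylase turns it into malonyl-CoA, and fatty acid synthase builds palmitate, which is elongated, desaturated and joined to glycerol to form triglyceride. Bile acids acting through FXR are known to lower hepatic triglycerides, in part by way of SHP and SREBP-1c. FXR binds DNA mainly with the retinoid X receptor at the IR1 element, an inverted repeat of the nuclear receptor hexamer AGGTCA with a spacer of a single base.

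The IR1 element was searched as AGGTCANTGACCT. This sequence is its own reverse complement, so 1 search covers both strands, and a match was allowed at most 2 mismatches over the 12 bases other than N, within 100 bp of the peak centre. An IR1 match was present in 4 of the 43 WT peaks (9.30%, 95% Wilson interval 3.68 to 21.6) against 11.8% of all WT peaks. It was present in 4 of the 26 LKO peaks (15.4%, interval 6.15 to 33.5) against 16.2% of all LKO peaks. The intervals are wide and treat peaks as independent, so they are descriptive only. The 4 sites were the same bases in both lists. The 4 WT peaks that held them are shown whole because they are the peaks of these genes with a match to the element within 2 mismatches. They were read from RefSeq's GRCm38.p6, which has the coordinates of the mm10 build used by the authors, on the plus strand, with the IR1 match in capitals.
Acaca, intron 39, chr11:84324947-84325157: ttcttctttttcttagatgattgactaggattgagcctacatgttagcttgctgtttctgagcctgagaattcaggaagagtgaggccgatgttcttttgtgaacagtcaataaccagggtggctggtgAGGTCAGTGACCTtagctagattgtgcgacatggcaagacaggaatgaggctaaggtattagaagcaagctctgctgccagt
Dgat2, intron 2, chr7:99168062-99168272: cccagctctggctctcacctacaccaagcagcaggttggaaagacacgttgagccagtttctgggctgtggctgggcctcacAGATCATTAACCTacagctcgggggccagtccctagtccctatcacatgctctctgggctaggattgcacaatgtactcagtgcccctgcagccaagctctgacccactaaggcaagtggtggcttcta
Fasn, 6352 bp upstream, chr11:120830794-120831004: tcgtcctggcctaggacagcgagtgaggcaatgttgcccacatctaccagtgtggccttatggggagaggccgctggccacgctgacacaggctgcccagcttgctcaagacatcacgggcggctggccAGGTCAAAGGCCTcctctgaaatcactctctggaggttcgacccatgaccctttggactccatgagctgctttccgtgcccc
Gpam, 2293 bp into the gene, chr19:55124840-55125050: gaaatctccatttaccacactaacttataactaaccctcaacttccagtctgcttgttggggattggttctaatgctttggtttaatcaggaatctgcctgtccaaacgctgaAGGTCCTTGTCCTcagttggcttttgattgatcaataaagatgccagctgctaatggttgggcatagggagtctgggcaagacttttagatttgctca

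The Acaca site, AGGTCAGTGACCT at chr11:84325076-84325088, matched the element at all 12 bases. Only 46 WT peaks (0.230%) and 36 LKO peaks (0.288%) in the whole lists held such an exact match. The site lay 30 bp from the centre of the WT peak and 5 bp from the centre of the LKO peak. The sites of Dgat2 (AGATCATTAACCT), Fasn (AGGTCAAAGGCCT) and Gpam (AGGTCCTTGTCCT) each had 2 mismatches.

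The promoter peaks of Fasn and Srebf1 had no IR1 match within 2 mismatches. Both lie inside exons of predicted transcript models, so only 29 bases around the motifs are shown, again on the plus strand of GRCm38.p6 with the motif in capitals. The closest IR1 match in the Fasn promoter peak had 3 mismatches, a level that 36.0% of all WT peaks reached. The Srebf1 promoter peak held an E-box (CACGTG), an element read by SREBP and other factors of the same structural class. It also held a match to the sterol regulatory element searched as TCACNCCAC, and an exact hexamer AGGTCA. All 3 were searched on both strands, and in the last 2 windows the capitals show the reverse complement of the motif.
Fasn promoter, chr11:120824715-120824743: cgcaagcgCGGTCGTTGACCCtggcggag
Srebf1 promoter, E-box, chr11:60222896-60222924: ctggttttggtCACGTGcccagcgcccgt
Srebf1 promoter, sterol regulatory element, chr11:60222849-60222877: aggcccccgaGTGGGGTGAcgcggcgtca
Srebf1 promoter, hexamer, chr11:60222936-60222964: gcggggcagtaTGACCTgagggtacgcgc

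Single hexamers were common. An exact AGGTCA on either strand lay in 21 of the 43 WT peaks (48.8%, all WT peaks 41.0%) and in 11 of the 26 LKO peaks (42.3%, all LKO peaks 41.6%). TCACNCCAC lay in 3 WT peaks, the Srebf1 promoter, the Gpam peak 18069 bp upstream and the Dgat2 peak 8929 bp upstream, against 0.893% of all WT peaks. It lay in 1 LKO peak, the Srebf1 promoter, against 0.904% of all LKO peaks. The E-box lay in 2 WT peaks (all WT peaks 5.18%) and 1 LKO peak (4.67%). The BCL6 core TTCNNNGAA lay in 2 WT peaks and 1 LKO peak, against 6.90% and 6.46% of the lists. These are matches of letters and were not tested for binding.

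FXR peaks were found at 9 of the 10 genes in the WT list, where 34.4% of 21900 protein-coding genes had a peak, and at all 10 in the LKO list, where 26.3% had one. Gpam, which encodes the mitochondrial acyltransferase that starts glycerolipid synthesis, had the most, with 9 WT and 5 LKO peaks. Only 0.676% of protein-coding genes had as many WT peaks. Mlxipl had 5 WT and 4 LKO peaks, Fasn 5 and 4, Acaca 5 and 3, Scd1 5 and 3, Acly 5 and 2, Lpin1 4 and 1, Srebf1 3 and 1, and Dgat2 2 and 2. Elovl6 had no WT peak and 1 LKO peak by the assignment, a point taken up below. No correction was made for gene length or for the distance to neighbouring genes. The 21900 genes were not limited to those expressed in liver, here or for the wider pathway below.

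**Figure D1:**
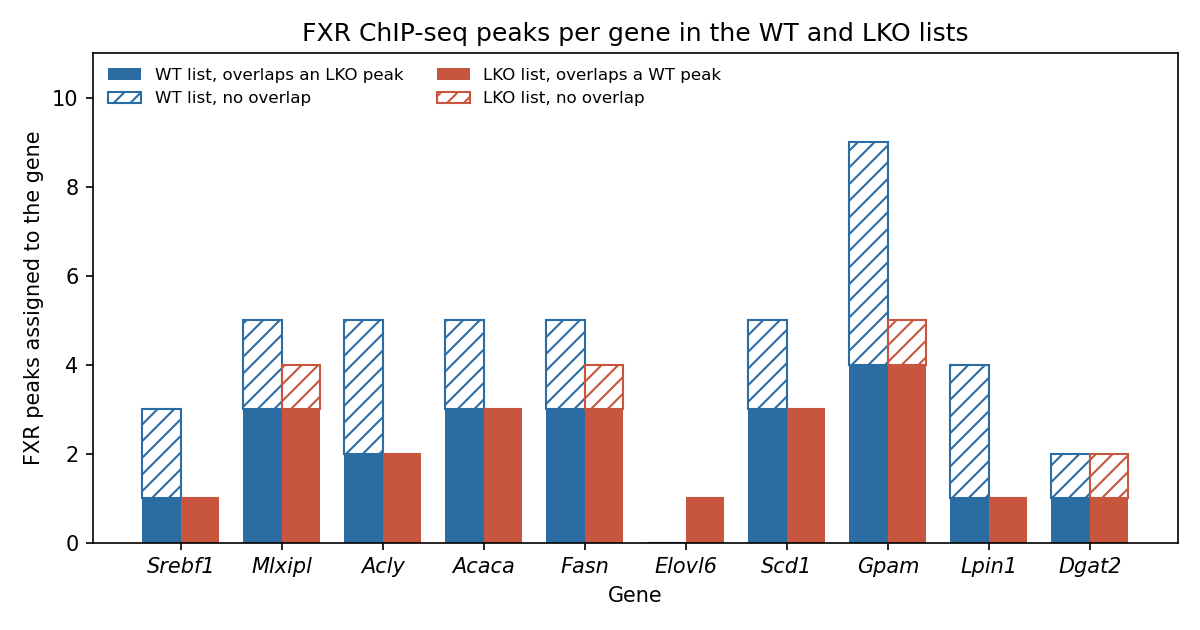
Bars give the number of FXR peaks assigned to each gene (vertical axis) in the WT list (blue) and the LKO list (red). Solid parts are peaks that overlap a peak of the other list by at least 1 bp and hatched parts are peaks that do not: Gpam had 9 WT peaks of which 5 were hatched, and the LKO bars hold only 4 hatched peaks in all.

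Of the 43 WT peaks, 21 overlapped an LKO peak by at least 1 bp (48.8%, 95% Wilson interval 34.6 to 63.2), beside 49.5% of all WT peaks. Of the 26 LKO peaks, 22 overlapped a WT peak (84.6%, interval 66.5 to 93.9), beside 79.4% of all LKO peaks. Both shares were near those of the whole lists. The intervals reflect the number of peaks counted and say nothing of how mice vary. The 22 peaks in the WT list only were weaker on the whole. Their median strength, the mean log2 tag value of both ChIP libraries ranked within the list, was at percentile 37.0, against 81.5 for the 21 shared WT peaks. Over the whole WT list these medians were 29.8 and 72.2. Among peaks at or above the median strength of their list, 19 of 27 WT peaks of these genes were shared (70.4%, all WT peaks of that strength 75.5%) and 15 of 15 LKO peaks (all LKO peaks of that strength 92.3%).

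Most of the binding lay away from the promoters. Introns held 21 of the 43 WT peaks (48.8%, all WT peaks 46.5%) and 16 of the 26 LKO peaks (61.5%, all LKO peaks 47.4%). Promoters held 4 WT peaks (9.30%, all 11.4%) and 3 LKO peaks (11.5%, all 11.3%). Within 10 kb of the start site lay 24 WT peaks (55.8%, all 42.9%) and 14 LKO peaks (53.8%, all 42.4%). Promoter windows of 300 bases were found in RefSeq for 8 of the 10 genes, and some genes had several. A window was overlapped by a peak of both lists at Elovl6, Fasn and Srebf1, and by a WT peak alone at Gpam. No peak of either list overlapped the other Srebf1 windows (chr11:60220578-60220877 and chr11:60210422-60210721) or the other Gpam window (chr19:55099428-55099727). Which Srebf1 window belongs to SREBP-1c was not examined.

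**Figure D2:**
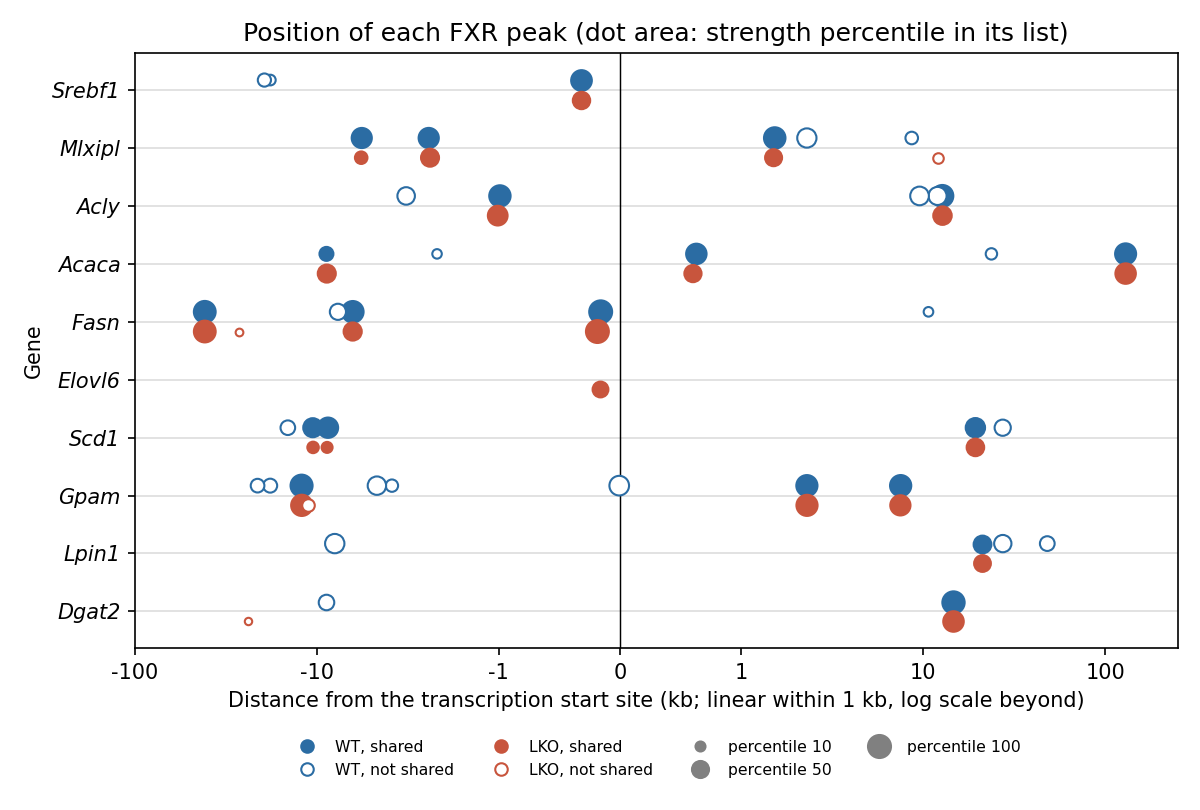
Each dot is an FXR peak, placed by its distance from the assigned start site in kb (horizontal axis, linear within 1 kb and logarithmic beyond) on the row of its gene, WT in blue above the line and LKO in red below it. Filled dots are shared and dot area gives the strength percentile within the list; the farthest is the Acaca intron 39 peak at 129614 bp, and the unfilled Gpam dot at -7 bp is a promoter peak of the WT list only.

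The values of a shared peak come from the window of each list, 211 bp long in WT and 205 bp in LKO, and these need not coincide. To set the lists side by side at the 22 shared peaks, each library was expressed relative to its own median over all 9918 shared peaks, on the log2 scale. On this scale 15 of the 22 peaks had a lower mean in LKO, as did 48% of all shared peaks, and 7 had a higher one. Both LKO values lay below both WT values at 9 of 22 peaks (40.9%), where 25.2% of all shared peaks did so. Both lay above at 3 of 22 (13.6%), where 29.8% of all shared peaks did so, and the values overlapped at the other 10. The median difference, LKO minus WT, was -0.20 over the 22 peaks and 0.026 over all shared peaks. The median over the 22 peaks was 0.19 and 0.39 in the WT libraries and -0.11 and 0.098 in the LKO libraries.

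The differences ran from -1.07 to 1.17, beside a 10th percentile of -0.62 and a 90th of 0.83 over all shared peaks. Of the 22, 11 were lower by more than the pooled SD of the libraries (all shared peaks 29.4%) and 4 were higher by more (all 33.7%). Without the shallow WT replicate 2, both LKO values lay below WT replicate 1 at 11 of 22 peaks (all shared peaks 35.3%) and above it at 4 (all 41.1%). The split depended on the scale, because the 2 tables have no common one. With the values as deposited, 14 peaks were lower and 1 higher (all shared peaks 37.3% and 12.9%). With each library centred on all peaks of its list, the counts were 15 and 1 (all 58.3% and 9.43%). With each table divided by its mean library total, they were 21 and 0 (all 85.3% and 1.54%).

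**Figure D3:**
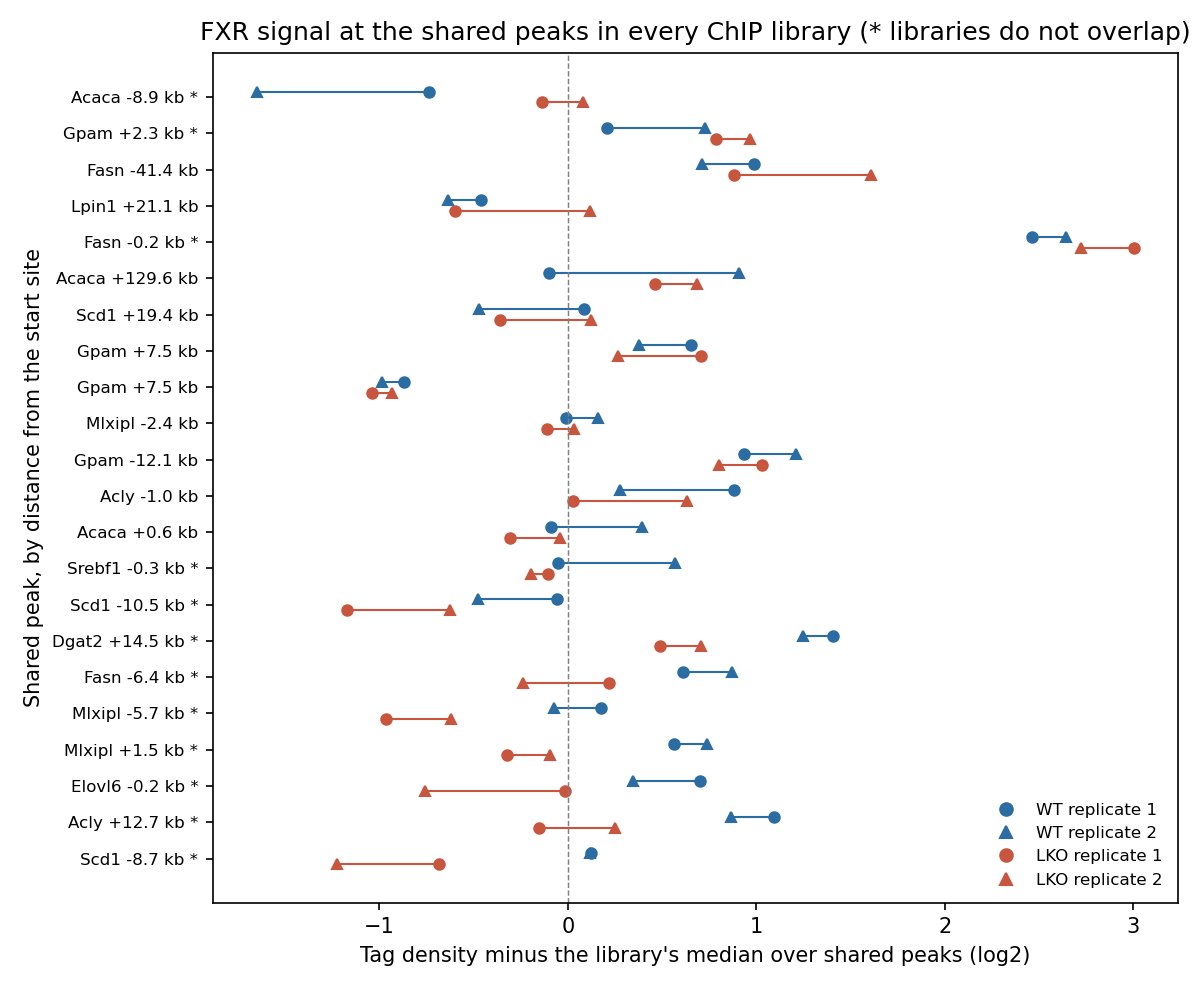
The horizontal axis gives the log2 tag value of each ChIP library minus that library's median over all shared peaks, for the 22 shared peaks of the 10 genes (rows, labelled by distance from the start site and sorted by the LKO minus WT difference). WT is blue and LKO red, circles are replicate 1 and triangles replicate 2; asterisks mark the 12 peaks whose libraries do not overlap, of which Fasn -0.2 kb lies farthest to the right, and its sign and that of Gpam +2.3 kb turn when libraries are centred on all peaks, which lowers every peak alike.

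The regulators come first. Srebf1 encodes SREBP-1, the insulin-responsive activator of lipid synthesis genes. Its promoter peak, 319 bp upstream of the assigned start site, was the only shared peak assigned to it. Of the assigned peaks it was the strongest in both lists (percentile 78.6 in WT and 52.2 in LKO). Relative to the library medians, the values of replicates 1 and 2 (the order kept throughout) were -0.052 and 0.57 in WT and -0.11 and -0.19 in LKO. The LKO libraries lay below both WT libraries, by 0.41 on average (pooled SD 0.31), but WT replicate 1 was close to them. The difference was -0.097 without the shallow WT replicate 2 and -0.72 without WT replicate 1. The 2 other WT peaks, 18034 and 19447 bp upstream, lay in the neighbouring gene Tom1l2, were weak (percentiles 12.9 and 25.4) and had no LKO partner. An additional shared peak inside Srebf1, in exon 8 of 19, was assigned to the microRNA gene Mir6922 and was not counted. It stood higher, at percentile 79.1 in WT and 76.2 in LKO. Its deposited log2 values, 5.38 and 5.75 in WT and 5.61 and 5.38 in LKO, overlapped. The library medians over all shared peaks were 5.01 and 5.53 in WT and 5.04 and 4.85 in LKO. Relative to these, both LKO values lay above both WT values, opposite to the promoter peak. The LKO input there was 3.36.

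Mlxipl encodes ChREBP, the glucose-responsive activator of glycolytic and lipogenic genes. Its strongest WT peak lay in intron 1, 1526 bp past the start site, with values of 0.56 and 0.74 in WT and -0.32 and -0.095 in LKO. The 4 libraries separated by genotype, and the difference was -0.86 (pooled SD 0.14). The peak 5670 bp upstream separated as well, with 0.18 and -0.072 in WT against -0.96 and -0.62 in LKO, a difference of -0.84 (pooled SD 0.21). Between them, the peak 2429 bp upstream, the strongest of Mlxipl in the LKO list, had -0.011 and 0.16 in WT and -0.11 and 0.034 in LKO, and its libraries overlapped. Both peaks upstream of this start site lay in intron 1 of another Mlxipl transcript. So 2 of the 3 shared peaks of Mlxipl separated by genotype on this scale. A further peak 12004 bp into the gene was in the LKO list only, with deposited log2 values of 4.13 and 3.78 (percentile 12.4).

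Among the enzymes of synthesis, Acly, which encodes ATP-citrate lyase, had its strongest WT peak in intron 8 of 27. Its values were 1.09 and 0.87 in WT and -0.16 and 0.25 in LKO, a difference of -0.93 (pooled SD 0.23) with no overlap. The Acly promoter peak, 991 bp upstream, was the strongest in LKO and showed no such separation: 0.88 and 0.28 in WT, 0.029 and 0.63 in LKO. Its difference of -0.25 was smaller than the pooled SD of 0.43 on this scale. It was -0.72 when centred on all peaks and -0.58 as deposited, without overlap on either. The LKO peak there, centred 1014 bp upstream, was annotated as intergenic, so it is not among the 3 LKO promoter peaks. The other 3 WT peaks of Acly had no LKO partner, and their percentiles were 62.0, 57.6 and 53.3.

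Acaca encodes acetyl-CoA carboxylase 1, which makes malonyl-CoA for synthesis. The peak over the exact IR1 site in intron 39 of 53 was its strongest in both lists, at percentile 81.5 in WT and 76.6 in LKO. The values were -0.099 and 0.91 in WT and 0.46 and 0.69 in LKO. The WT libraries differed from each other by more than the genotypes did, so the difference of 0.17 (pooled SD 0.52) was within the spread. A peak 8866 bp upstream of the assigned start site lay inside the longest annotated span of Acaca. It had the largest non-overlapping rise of the 22, with -0.74 and -1.65 in WT against -0.14 and 0.079 in LKO, a difference of 1.17 (pooled SD 0.47). Without the shallow WT replicate 2, which held an estimated 4.42 tags there, it was 0.71. The LKO input was high there, at 2.96 where the 95th percentile of input over the LKO list was 2.49, while the WT input was -0.49. Whether the input took part in this difference was not tested. The difference was 0.84 with the values as deposited and 0.020 per mean library total, where the libraries overlapped. The third shared peak, in intron 1 and 629 bp past the start site, had a difference of -0.33 (pooled SD 0.28) with overlapping libraries. The difference was -0.80 when centred on all peaks, -0.66 as deposited and -1.47 per mean library total, each without overlap.

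Fasn encodes fatty acid synthase, and the peak 160 bp upstream of its start site, chr11:120824602-120824812, was the strongest of all 69. It stood at percentile 98.9 in both lists, with an estimated 352 and 86.7 tags in the WT libraries and 331 and 253 in the LKO libraries. Relative to the library medians it reached 2.46 and 2.64 in WT and 3.001 and 2.72 in LKO. The LKO values were the higher ones on this scale by 0.31 (pooled SD 0.17), or by 0.17 without LKO replicate 1, while the difference was -0.17 when libraries were centred on all peaks and -0.022 with the values as deposited. These scales lower every shared peak alike, so the Fasn promoter peak was higher relative to the median of all shared peaks on each of them, and its direction in absolute terms was not determined. The input was above its 95th percentile in both genotypes, at 1.89 against 1.85 in WT and 3.70 against 2.49 in LKO. The part of the input in this signal was not tested.

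The other shared peaks of Fasn lay in introns of its upstream neighbour Ccdc57. The peak 6352 bp upstream, which held the IR1 match shown above, had 0.61 and 0.87 in WT and 0.22 and -0.24 in LKO, a difference of -0.75 (pooled SD 0.26) without overlap. The peak 41370 bp upstream had 0.99 and 0.71 in WT and 0.88 and 1.61 in LKO and overlapped. The promoter peak and the peak 6352 bp upstream therefore differed in opposite directions on the centred scale, the promoter's being the one whose sign depended on the scale. A peak 26895 bp upstream was in the LKO list only, with deposited log2 values of 3.69 and 3.61, at percentile 1.63 of the list.

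Elovl6 encodes the elongase that converts palmitate to stearate. The start site of the long noncoding RNA gene Gm35986 lies beside that of Elovl6 and took nearly all of its peaks in the assignment. In the span of Elovl6 and 10 kb upstream lay 11 WT peaks, all assigned to Gm35986, and 3 LKO peaks, of which 2 were. All 3 LKO peaks overlapped a WT peak, while 3 of the 11 WT peaks overlapped an LKO peak, where 49.5% of all WT peaks did. The WT peaks without a partner stood at percentiles 80.6, 61.3, 58.0, 28.1, 27.8, 19.2, 11.6 and 1.67, so most were weak. Counted by position in this way for every gene, the 10 genes held 50 WT and 28 LKO peaks.

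The LKO peak at the Elovl6 promoter, 169 bp upstream, overlapped a WT peak, with 0.70 and 0.35 in WT and -0.013 and -0.76 in LKO. The libraries did not overlap, and the difference was -0.91 (pooled SD 0.41), or -0.54 without LKO replicate 2. The strongest peak of the locus lay in intron 2 of 4, 17385 bp past the start site, and had 0.77 and 1.06 in WT and 1.09 and 1.25 in LKO, a difference of 0.25 (pooled SD 0.17) on the centred scale. Its deposited values, 5.79 and 6.59 in WT and 6.13 and 6.10 in LKO, overlapped. A WT peak 32753 bp into the gene had no LKO partner although it stood at percentile 80.6 of the WT list. The LKO promoter peak of Elovl6 is shown because it held the hexamer (in capitals, reverse complement) with no IR1 match, its best having 5 mismatches.
Elovl6 promoter, chr3:129532115-129532319, plus strand: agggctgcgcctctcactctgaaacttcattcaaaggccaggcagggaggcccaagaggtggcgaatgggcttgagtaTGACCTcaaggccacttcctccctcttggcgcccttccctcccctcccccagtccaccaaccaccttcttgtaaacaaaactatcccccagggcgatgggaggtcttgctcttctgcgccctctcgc

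Scd1 encodes stearoyl-CoA desaturase, which forms oleate and palmitoleate. None of its peaks lay in the gene or its promoter. Its strongest WT peak, 8696 bp upstream, had the largest fall of the 22, with 0.12 and 0.12 in WT and -0.68 and -1.22 in LKO, a difference of -1.07 (pooled SD 0.27). The windows overlapped only in part, at chr19:44416300-44416510 in WT and chr19:44416400-44416604 in LKO. The input was 1.80 in WT and -0.17 in LKO. Whether the windows or the input took part in this difference was not tested. The peak 10541 bp upstream also separated, with -0.059 and -0.47 in WT and -1.17 and -0.63 in LKO, a difference of -0.63 (pooled SD 0.34), or -0.36 without LKO replicate 1. Both upstream peaks were thus lower in LKO, and in the LKO list they stood only at percentiles 14.3 and 16.7. The shared peak 19354 bp downstream of the start site, the strongest of Scd1 in LKO, had 0.085 and -0.47 in WT and -0.36 and 0.12 in LKO, and did not separate.

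Gpam had 4 shared peaks, 5 peaks in the WT list only and 1 in the LKO list only. The strongest in both lists lay 12148 bp upstream, with 0.93 and 1.21 in WT and 1.03 and 0.80 in LKO, and overlapped. The peak with the IR1 match, 2293 bp past the upstream start site, had 0.21 and 0.73 in WT and 0.78 and 0.97 in LKO, higher in LKO by 0.41 (pooled SD 0.28) on this scale but by 0.078 as deposited, and with a difference of -0.069 when centred on all peaks, scales that lower every shared peak alike. Without WT replicate 1 the centred difference was 0.15, and without WT replicate 2 it was 0.67. The 2 shared peaks near 7.5 kb, one from each of 2 annotated start sites, differed by -0.028 and -0.057.

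The Gpam promoter peak, 7 bp upstream of the start site at chr19:55127140-55127350, was in the WT list only. Its deposited log2 values were 4.84 and 5.50, with an input of -0.34, and it stood at percentile 69.8. Among the peaks assigned to the 10 genes it was the strongest without an LKO partner, and of the 6053 WT peaks at least as strong, 12.5% had none. No LKO value can be given for it, because each table lists only its own peaks. The Gpam peak in the LKO list only, 11258 bp upstream of the downstream start site, had deposited log2 values of 4.14 and 4.17 (percentile 22.2).

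Lpin1 encodes lipin 1, the phosphatidate phosphatase that makes diacylglycerol. The strongest WT peak assigned to it, 7981 bp upstream, had deposited log2 values of 4.45 and 5.72 (percentile 67.4) and no LKO partner. The shared peak assigned to Lpin1, in intron 6 of 20, had -0.46 and -0.64 in WT and -0.60 and 0.12 in LKO, and the libraries overlapped. Within the longest annotated span of Lpin1, 1 WT peak and 3 LKO peaks were assigned to Ntsr2, so the fall from 4 WT peaks to 1 LKO peak depends on the assignment, and by position the counts were 5 and 4. That WT peak was stronger (percentile 83.5) and was shared with an LKO peak at percentile 51.6. Deposited log2 values there were 5.78 and 5.80 in WT and 5.06 and 4.50 in LKO, without overlap.

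Dgat2 encodes the acyltransferase of the last step of triglyceride synthesis. Its peak in intron 2 of 7, with the IR1 match shown above, stood at percentile 93.0 in WT and 77.1 in LKO, after Fasn the strongest WT peak of the 10 genes. The values were 1.41 and 1.25 in WT and 0.49 and 0.71 in LKO, and the difference was -0.73 (pooled SD 0.14) without overlap. Its distal peak 23826 bp upstream, in the LKO list only, had deposited log2 values of 3.76 and 3.33 and was among the weakest of the list, at percentile 0.508. In the span of Dgat2 and 10 kb upstream lay 4 WT and 2 LKO peaks, of which 2 and 1, all in introns of Dgat2, were assigned to Uvrag. The shared one of these, in intron 4, had deposited log2 values of 4.98 and 5.44 in WT and 4.22 and 4.70 in LKO. The 4 peaks in the LKO list only had a median percentile of 7.03, where all such LKO peaks had 24.0.

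**Figure D4:**
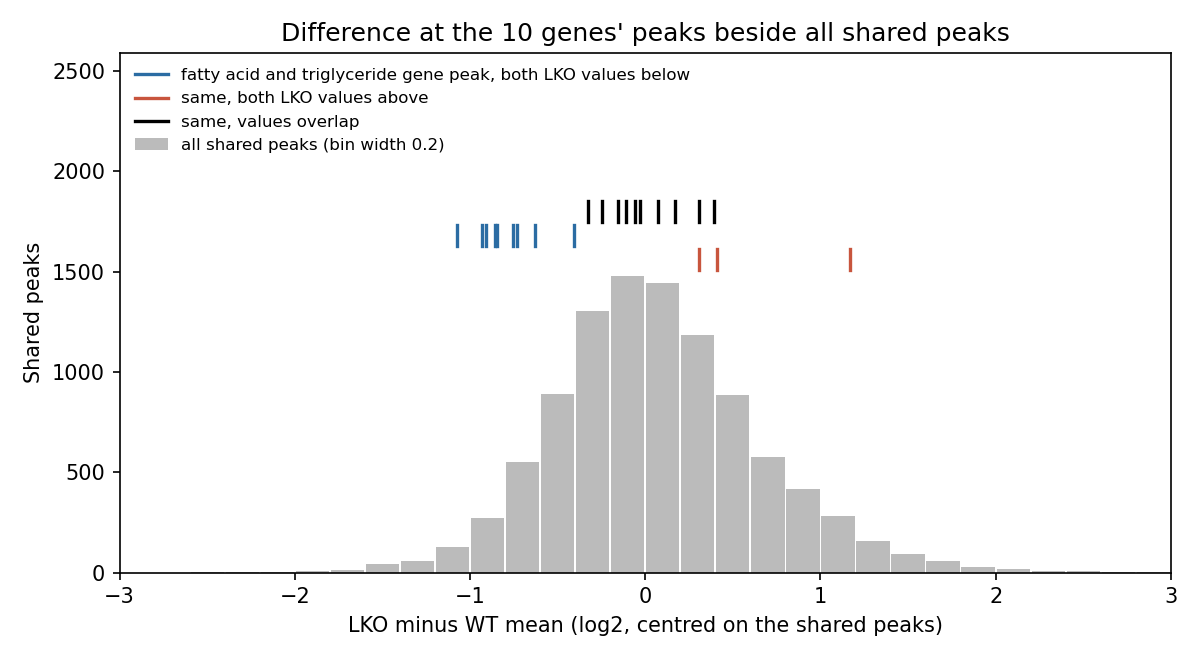
Grey bars count all shared peaks by their LKO minus WT difference on the centred log2 scale (horizontal axis), with 2 peaks beyond 3 not drawn. Ticks above mark the 22 peaks of the 10 genes, blue where both LKO values were below both WT values (9), red where both were above (3) and black where they overlapped (10); under centring on all peaks the counts of blue and red become 15 and 1.

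At the 4 peaks with an IR1 match, the Dgat2 and Fasn upstream peaks were lower in LKO, the Gpam peak was higher when centred on shared peaks, with a direction that depended on the scale, and the Acaca peak was within the spread. On the scale centred on shared peaks, the promoter peaks of Srebf1 and Elovl6 were lower in LKO, that of Acly was within the spread, that of Fasn was higher, and that of Gpam had no LKO partner. The Srebf1 difference rested largely on the shallow WT replicate 2, being -0.41 with it and -0.097 without it. On the 3 other scales the Fasn difference was negative and the Acly libraries did not overlap, with LKO lower.

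The wider pathway was described with 46 further genes. A WT peak was assigned to 36 of them (78.3%, all protein-coding genes 34.4%) and an LKO peak to 31 (67.4%, all 26.3%), with 28 in both. Their 60 shared peaks had a median difference of -0.056, with 17 higher (28.3%) and 16 lower (26.7%) without overlap, near the shares of all shared peaks. Of their 108 WT peaks 55.6% were shared (all WT peaks 49.5%), and of their 76 LKO peaks 78.9% (all LKO peaks 79.4%).

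The group counts stand beside the 34.4% of protein-coding genes with a WT peak and the 26.3% with an LKO peak. By group, the 10 regulators had a WT peak at 7 genes and an LKO peak at 6. Most lay at Insig1, which encodes a protein that holds SREBP in the endoplasmic reticulum (6 WT and 6 LKO peaks). The 6 genes of acetyl-CoA and fatty acid synthesis had a WT peak at 4 and an LKO peak at 1, and Acacb, the mitochondrial acetyl-CoA carboxylase, had 3 WT peaks and no LKO peak. The 9 genes of elongation and desaturation had WT peaks at 8 and LKO peaks at 7, with most at Elovl5, an elongase of polyunsaturated fatty acids (8 WT and 6 LKO peaks). The 10 genes of glycerolipid assembly had WT peaks at 8 and LKO peaks at 9, with most WT peaks at the acyltransferase genes Gpat3 and Gpat4 (5 WT and 2 LKO peaks each). The 11 genes of storage, lipolysis and export had WT peaks at 9 and LKO peaks at 8, led by Mgll, monoglyceride lipase, with 11 and 9. Peaks in the LKO list only, 16 in all, were assigned to Elovl5 (3), Elovl2, Fads2 and Mgll (2 each), and Insig1, Scap, Nr1h3, Me1, Elovl1, Dgat1 and Mogat1 (1 each). Elovl1, Dgat1 and Mogat1 had no WT peak, and their LKO peaks stood at percentiles 2.35, 18.6 and 19.5 of the list.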

How the data were processed

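FXR ChIP-seq was measured in 6 libraries of male mouse liver, 2 ChIP libraries and 1 input per genotype, grouped by their labels. Reads were aligned to mm10, and the submitters' processing notes name Bowtie 1.2 and HOMER 4.10. Peaks were called by the authors, per the file headers, once for each genotype with its ChIP libraries pooled and its input as background, and those were kept with an adjusted p under 0.05 and a log2 fold change over 1 in DESeq2. The deposited tag columns hold negative and fractional numbers and were read as regularized log2 tag values, fitted by the authors within each table, a transform that shrinks low values. The deposited signal column, a score of pooled ChIP tags per 10000000, was not used for any comparison. The authors' fold changes, p-values and adjusted p-values of ChIP against input were not used.

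Peaks were selected by the assigned gene name, and overlap, centring, differences, pooled SDs and motif matches were computed in Python 3.11.15 with numpy 2.4.6 and pandas 2.3.3, tested on simulated data. Figures were drawn with matplotlib 3.10.9. Sequence came from GRCm38.p6, where 69 of 69 start site distances matched the annotation within 2 bp. Every gene was named with its peak numbers. Values in every library were given for its strongest peak in each list, promoter peaks, peaks in the LKO list only and the shared peaks with the largest non-overlapping difference up and down. Other shared peaks of the 10 genes were described after their values were seen. The genes and lists were chosen with earlier results of these data known. No test was run, because the tables were normalized separately and each genotype has 1 pooled list. The alternatives were other overlap rules, scales and motif limits, an input filter, positional assignment and leaving out each replicate. The number of tags limits precision, most in WT replicate 2.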

Additional observations from a re-analysis of the deposited data

How the results depend on the processing

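When weaker peaks than the median of each list were dropped, the 10 genes held 27 WT and 15 LKO peaks, of which 70.4% and 100% were shared, beside 75.5% and 92.3% of all peaks of that strength. With at most 1 mismatch, the IR1 shares were 2.33% (WT) and 3.85% (LKO), 1 peak each, beside 2.46% and 3.55% of the lists. The median difference of -0.20 was -0.68 when centred on all peaks, -0.53 as deposited and -1.35 when each table was divided by its mean library total, a setting chosen after seeing the data. The median over all shared peaks moved with these scales too, to -0.45, -0.30 and -1.12. Leaving out each replicate in turn gave -0.31 to -0.14, and without peaks of high input it was -0.29. The Fasn promoter difference reversed to -0.17 (centred on all peaks) and -0.022 (as deposited), and that of the Gpam peak at 2293 bp to -0.069 (centred on all peaks). These moves follow from the construction of the scales, which shift every peak alike. Of 26 alternative values for the counts, shares and medians, 9 moved and 17 did not. No paired analysis was possible because the results come from no test and replicate numbers of different tables were not stated to pair mice. Depth limits mainly WT replicate 2, where the weakest peak of these genes held an estimated 2.61 tags.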
